A study of Mus musculus with 4 samples.

Results

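The histone genes of the mouse were examined in bulk RNA-seq of cerebellar tissue from wild-type (WT) mice and from mice that carry 1 disrupted copy of Kdm3b. All gene identifiers of the deposited tables whose current or older mouse symbol names a core or linker histone were taken, which gave 104 genes of 24532, and 3 pseudogenes were left out. Of these, 67 had an older symbol of the clustered series (Hist1h to Hist4h) and are called clustered here, and 37 were counted as variants. The choice used names only and no measured value.

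Histones are the proteins that package DNA: H2A, H2B, H3 and H4 form the nucleosome core, and H1 binds the linker DNA between nucleosomes. Clustered genes are intronless for the most part and supply dividing cells during DNA replication, and their mRNAs classically end in a conserved stem-loop in place of a poly(A) tail. Most variant genes lie alone in the genome, have polyadenylated mRNAs and are transcribed outside replication, so that neurons, which no longer divide, draw on them: H3.3 replaces H3, H2A.Z and macroH2A replace H2A, and H1.0 replaces other linker histones. KDM3B, the product of the disrupted gene, removes mono- and dimethyl marks from lysine 9 of histone H3, and the study asked what its partial loss does to gene expression in the granule-cell layer.

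Both groups were adult male littermates over 7 weeks of age, on a background backcrossed to C57Bl/6N and then crossed to C57Bl/6J. Group 1 was wild type (2 mice), and group 2 was heterozygous for a gene-trap insertion (vector pGT0lxf) between exons 12 and 13 of Kdm3b, from the single ES cell line YTC406 (2 mice). The disruption is present in all cells from conception. RNA came from granule-cell-enriched tissue dissected by hand from slices of the cerebellar vermis, which the labels call cerebellum, with 1 library per mouse. Values are in the unit TPM (transcript abundance per length, scaled so that each library adds up to 1000000), and entries of the same gene were summed.

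Between 4.919 and 6.691 gigabases were aligned per library. Kdm3b itself was measured at 9.10 and 10.996 TPM in WT mice and at 8.30 and 7.90 TPM in Kdm3b+/- mice, with no overlap, and its log2 fold change of -0.27 (SE 0.17) did not pass the test (limma, adjusted p = 0.424). The summed TPM of 12 granule cell markers lay between 5291 and 6292. Other cell types were present, with 14888 to 17795 TPM for 8 oligodendrocyte markers and 738 to 928 TPM for 12 Purkinje cell markers in 3 of the libraries, against 1652 TPM in WT replicate 1. Choroid plexus markers summed to at most 1.44 TPM. All 11 Purkinje cell markers tested had log2 fold changes below 0 (median -0.49), with 0 DEX, and among the glial markers Aqp4 was DEX and higher (log2 fold change 1.10, limma adjusted p = 0.0329) and Mobp was DEX and lower (-0.93, limma adjusted p = 0.0133). Their part in the histone values was not tested. In such bulk tissue, fewer cells of a type and less RNA per cell cannot be told apart.

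The stem-loop that marks clustered histone mRNAs is shown for 5 members because it separates the classes described below. Transcript sequences were those of GENCODE on GRCm38, and the letters searched on the transcript strand were GG, any 2 bases, CTTTT, any base, AG, any 2 bases and CC. Capitals mark this stem-loop, and the 5 bases on either side are in lower case, 5′ to 3′.
H2ac18: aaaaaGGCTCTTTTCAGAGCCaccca
H2bu2: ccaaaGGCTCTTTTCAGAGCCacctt
H4c4: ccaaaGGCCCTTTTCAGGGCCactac
H4c14: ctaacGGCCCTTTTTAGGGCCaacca
H2ax: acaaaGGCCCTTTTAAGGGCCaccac
These letters were in a transcript of 44 of the 67 clustered genes (65.7%), of 2 of the 37 variant genes (H2ax and H2bfm) and of 0.146% of 21262 other genes. Some clustered genes without them have short annotated transcripts, such as H4c12 (312 bases) and H2ac13 (393 bases). A missing match therefore does not show that the mRNA lacks a stem-loop. The same 16 bases, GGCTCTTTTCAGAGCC, were found in 26 clustered genes, and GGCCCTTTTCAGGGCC in 7.

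Of the 104 genes, 24 were listed at 0 in every library. They were 22 variants, for the most part H2A forms known from testis such as H2al1a and H2ab1, the oocyte linker histone H1f8 and the spermatid linker histone H1f7, and 2 clustered genes, the testis forms H1f6 and H2ac1. Another 33 genes (28 clustered and 5 variant) were above 0 with a mean under 1 TPM. The remaining 47 genes (37 clustered and 10 variant) had a mean TPM of at least 1 and were tested. For 9 of the clustered genes tested, the mean reached 1 TPM only in the Kdm3b+/- group, so that they passed this filter through the group in which they were high, and no gene passed it only through WT.

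Histone TPM in these libraries was mostly that of variant genes. Library selection is not given in the sources used here, and its part in this share was not tested. The 37 variant genes together had 4159 and 4026 TPM in the WT libraries and 5135 and 4727 TPM in the Kdm3b+/- libraries, and the 67 clustered genes had 596 and 573 TPM in WT against 805 and 604 TPM in Kdm3b+/-. Clustered genes thus held 12.5% ± 0.0528 of histone TPM in WT mice and 12.4% ± 1.57 in Kdm3b+/- mice (SD, n = 2 each). Both sums were higher in both Kdm3b+/- libraries than in both WT libraries, with mean ratios of 1.21 for each. The variant difference was larger than the spread between replicates, whereas the clustered one lay mainly in 1 library: the clustered log2 ratio was 0.27 with all libraries and 0.05 without Kdm3b+/- replicate 1.

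**Figure D1:**
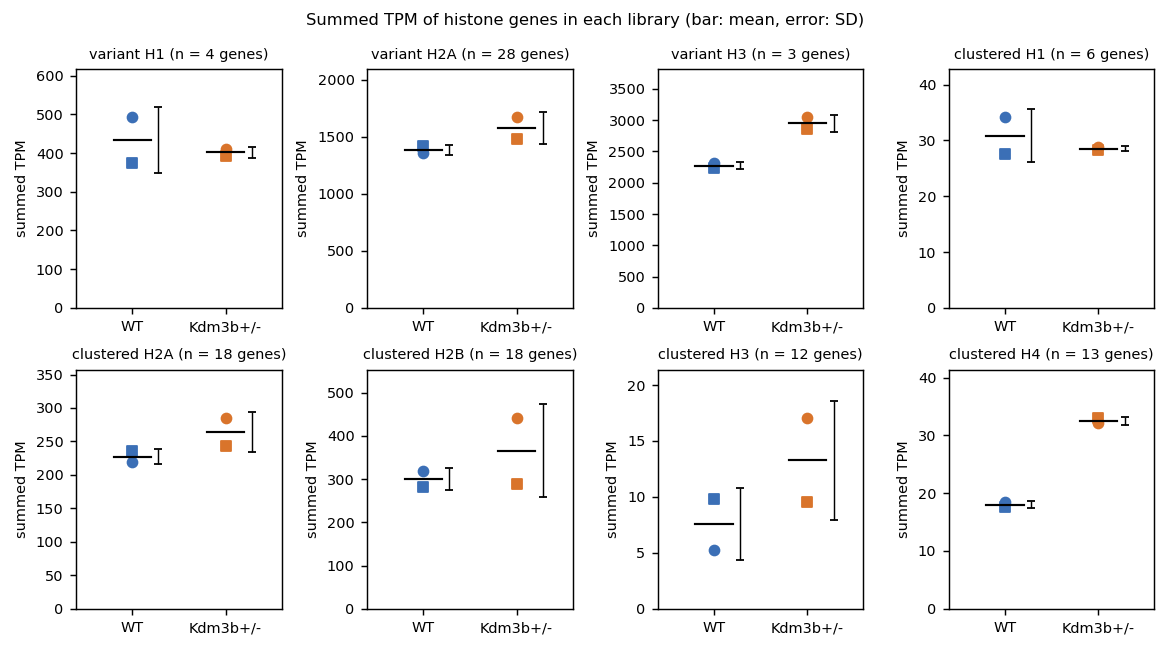
Summed TPM (vertical axes, from 0) of variant and clustered histone genes by type in the 2 WT and 2 Kdm3b+/- libraries, with circles for replicate 1, squares for replicate 2, bars for group means and error bars for the SD. H4 sums of 32.1 and 33.0 TPM in Kdm3b+/- mice stand above 18.4 and 17.6 TPM in WT mice, whereas H1 sums overlap.

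No histone gene passed the test. Genes were called differentially expressed (DEX) at a limma adjusted p under 0.05 with a fold change over 1.2, which 0 of the 47 histone genes met, against 0.461% of the 13652 genes tested (63 genes). At an unadjusted p under 0.05, 16 histone genes (34.0%) were higher in Kdm3b+/- mice and 0 were lower, where the shares of all genes tested were 5.47% and 11.5%. Because of the 9 genes that passed through the high group, the 38 with a mean of at least 1 TPM in both groups are given too: 10 of them had an unadjusted p under 0.05. Over all 80 histone genes above 0, whether tested or not, both Kdm3b+/- libraries were above both WT libraries for 50 (62.5%) and below them for 3 (3.75%), against 17.7% and 27.1% of all 19182 genes above 0. Short transcripts in general were higher in Kdm3b+/- libraries, as described below.

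The median log2 fold change of the 28 clustered genes with a mean of at least 1 TPM in both groups was 0.30, and that of the 10 variants was 0.17, where the median of all genes tested was -0.07. With the 9 genes that passed the filter through the high group alone, the clustered median was 0.40, which that selection raises. Of the 9, 5 are H4 genes (H4c2, H4c6, H4c12, H4c14 and H4c18), and the others are H1f3, H2ac6, H2bc13 and H3c6. By type and without them, the medians were 0.60 for H2A (6 genes), 0.46 for H3 (2 genes), 0.46 for H4 (4 genes), 0.22 for H2B (14 genes) and 0.13 for H1 (2 genes). Among clustered genes with a mean of at least 20 TPM (6 genes) the median was 0.21, and none of these 6 had an unadjusted p under 0.05. Among the 22 others that had 1 TPM in both groups the median was 0.44, and 9 of them did. The levels were not tested against each other.

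**Figure D2:**
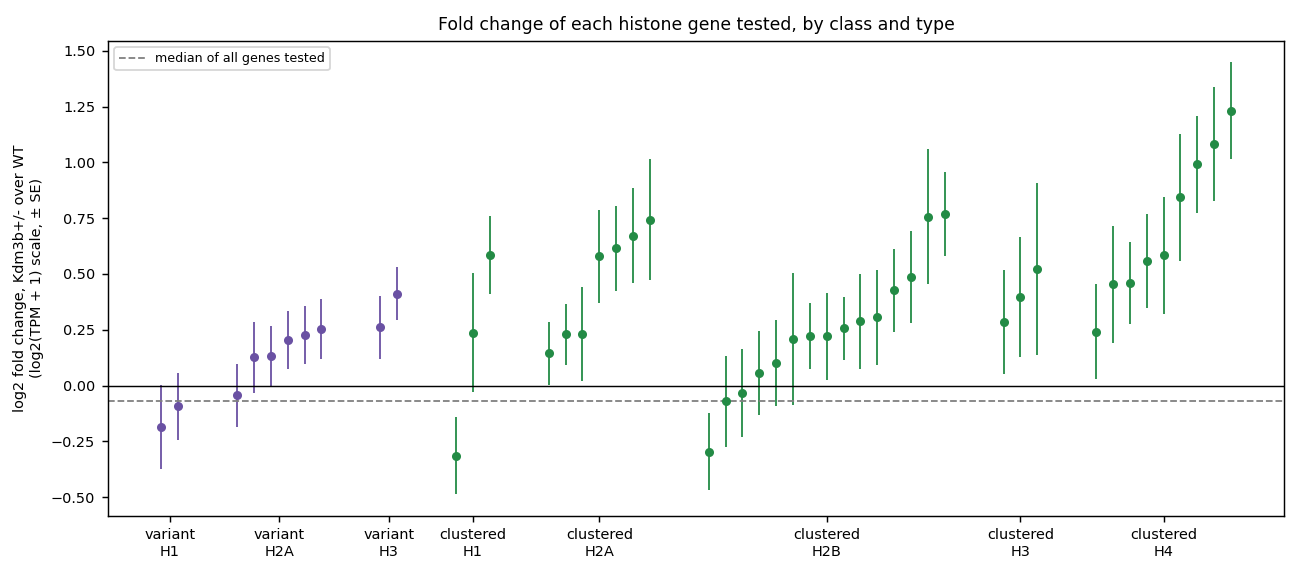
Log2 fold change of Kdm3b+/- over WT on the log2(TPM + 1) scale (vertical axis) for each of the 47 histone genes tested, with its SE, ordered by size within class and type (horizontal axis). All 9 clustered H4 genes lie above 0, up to 1.23, though 5 of them reached 1 TPM only in Kdm3b+/- mice, and both variant H1 genes lie below it.

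H3.3, the replacement form of histone H3 that accumulates in neurons, was the most abundant histone message. It is made from a pair of genes that encode the same protein. H3f3b, listed at chr11:116021961-116024504 on the minus strand, had 1668 and 1675 TPM in WT and 2406 and 2057 TPM in Kdm3b+/- mice. The groups did not overlap. The spread was small in WT mice (SD 4.89 TPM) and much larger in Kdm3b+/- mice (SD 247 TPM). Its log2 fold change was 0.41 (SE 0.12), with a limma adjusted p of 0.170. H3f3a (chr1:180802560-180813605, minus strand) had 641 and 560 TPM in WT and 645 and 799 TPM in Kdm3b+/- mice. The lowest Kdm3b+/- value was just above the highest WT value, and its log2 fold change was 0.26 (SE 0.14). Without Kdm3b+/- replicate 2, the log2 fold change of H3f3b was 0.52, so that its size depended on that library.

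H3.3 held nearly all of the H3 message in these libraries. Its share of H3 TPM was 99.8% and 99.5% in WT mice and 99.4% and 99.6% in Kdm3b+/- mice, and the difference of group means of -0.13 percentage points was within the spread between replicates. The 12 clustered H3 genes, which encode the replication-coupled forms H3.1 and H3.2, summed to 5.27 and 9.82 TPM in WT and to 17.1 and 9.51 TPM in Kdm3b+/- mice, and the groups overlapped. Among them H3c13, H3c14 and H3c15 encode H3.2 and share sequence, so they were also summed. Together they had 3.18 and 5.60 TPM in WT and 8.13 and 3.81 TPM in Kdm3b+/- mice, which overlapped. H3f4, a low variant-named H3 gene that lies beside the small cluster on chromosome 11, had 0.0809 and 0.287 TPM in WT and 0.680 and 0.887 TPM in Kdm3b+/- mice.

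The promoter of H3f3b is shown as that of the highest histone gene, with capitals marking the motifs searched. It covers the 250 bases before the start (RefSeq, GRCm38.p6, chr11:116024505-116024754, minus strand, 5′ to 3′).
H3f3b: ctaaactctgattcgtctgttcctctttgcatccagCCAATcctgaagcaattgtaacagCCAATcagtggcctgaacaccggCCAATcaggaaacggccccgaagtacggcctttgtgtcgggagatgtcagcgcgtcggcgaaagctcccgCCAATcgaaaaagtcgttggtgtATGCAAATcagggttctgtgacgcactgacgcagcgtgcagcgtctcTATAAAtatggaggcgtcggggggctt
The 4 motifs were searched on both strands, and none overlapped another in the promoters printed: the TATA box TATAAA, the CCAAT box, the octamer ATTTGCAT, which is the binding sequence of POU factors such as OCT1, and AAACACA, which is known from H1 promoters. H3f3b had TATAAA 27 bases before the start, CCAAT at 214, 190, 167 and 97 bases before it, and the octamer on the opposite strand at 74 bases.

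Such motifs set the clustered promoters apart from most others. In windows of 300 bases (250 before to 50 after the start), CCAAT was in 85.7% of 63 clustered promoters, 38.9% of 36 variant promoters and 37.4% of all 32851 promoters. TATAAA was in 55.6%, 11.1% and 13.6% of these, and the octamer in 22.2%, 2.78% and 1.74%. The types differed among themselves. CCAAT was in every clustered H1, H2A, H2B and H3 promoter but in 25% of the 12 H4 promoters. The octamer was in 38.9% of H2A and 41.2% of H2B promoters and in none of the other clustered types, and AAACACA was in 83.3% of the 6 clustered H1 promoters. H3f3b was the 1 variant promoter with the octamer. Windows of head-to-head H2A and H2B genes overlap, with 177 to 305 bases between the starts in 10 pairs. A single match there can count in both promoters, so that the H2A and H2B shares are not independent. The motifs are matches of letters and not measured binding sites.

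Among variant H2A genes, H2az1 and H2az2 encode H2A.Z, a form placed at promoters and enhancers by the SRCAP and p400 complexes. H2az1 had 688 and 706 TPM in WT and 887 and 726 TPM in Kdm3b+/- mice, and H2az2 had 201 and 197 TPM in WT and 240 and 198 TPM in Kdm3b+/- mice. In both genes Kdm3b+/- replicate 1 stood above the other libraries, which differed little. Their log2 fold changes were 0.20 (SE 0.13) and 0.13 (SE 0.14). H2A.Z held 55.5% ± 1.253 of H2A TPM in WT mice and 55.6% ± 2.79 in Kdm3b+/- mice (SD, n = 2 each).

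Macroh2a1 and Macroh2a2 encode macroH2A, a large H2A form with a macro domain that is enriched on silent chromatin. Macroh2a1 had 205.1 and 215 TPM in WT and 231 and 262 TPM in Kdm3b+/- mice, without overlap, and Macroh2a2 had 80.1 and 85.9 TPM in WT and 74.9 and 86.2 TPM in Kdm3b+/- mice, with overlap. H2aj, a replication-independent form close to canonical H2A, had 72.5 and 75.3 TPM in WT and 93.0 and 83.8 TPM in Kdm3b+/- mice. Its groups did not overlap, and its log2 fold change was 0.25 (SE 0.14, limma adjusted p = 0.368). H2ax, the form phosphorylated at DNA breaks, had 109 and 137 TPM in WT and 146 and 122 TPM in Kdm3b+/- mice, which overlapped. It is the variant above 1 TPM that carries the stem-loop letters, and its transcript goes on for 822 bases after them.

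The abundant linker histone genes did not share the direction of the core histones. H1f0, the linker histone H1.0 of cells that have left the cell cycle, held 91.3% ± 0.644 of H1 TPM in WT mice and 91.4% ± 0.613 in Kdm3b+/- mice (SD, n = 2 each). It had 484 and 364 TPM in WT and 404 and 383 TPM in Kdm3b+/- mice, so that both mutant values lay between the WT values. H1f10 (older symbol H1fx), another replication-independent linker histone, had 9.53 and 9.38 TPM in WT and 6.92 and 9.66 TPM in Kdm3b+/- mice. Their log2 fold changes were -0.09 (SE 0.15) and -0.19 (SE 0.19), and H1f0 turned to 0.11 without WT replicate 1. That library also had the highest sum of Purkinje cell markers, and the part of these cells in the result was not tested.

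H1f2 (Hist1h1c, chr13:23738807-23739531, plus strand), the most abundant clustered H1 gene, had the largest decrease of the histone genes tested. It had 31.0 and 23.4 TPM in WT and 20.6 and 22.5 TPM in Kdm3b+/- mice, and its highest value was again in WT replicate 1. The groups did not overlap, but the log2 fold change of -0.31 (SE 0.17) did not pass the test (limma adjusted p = 0.379). H1f4 (Hist1h1e), which encodes H1.4, had 2.35 and 2.53 TPM in WT and 4.12 and 4.19 TPM in Kdm3b+/- mice. Both its groups were tight and apart, and its log2 fold change was 0.58 (SE 0.18, limma adjusted p = 0.179). H1f1 was listed at 0 in both WT libraries and at 1.24 and 0.354 TPM in Kdm3b+/- mice. The promoter of H1f2 is shown for comparison with that of H3f3b (RefSeq, GRCm38.p6, chr13:23738557-23738806, plus strand).
H1f2: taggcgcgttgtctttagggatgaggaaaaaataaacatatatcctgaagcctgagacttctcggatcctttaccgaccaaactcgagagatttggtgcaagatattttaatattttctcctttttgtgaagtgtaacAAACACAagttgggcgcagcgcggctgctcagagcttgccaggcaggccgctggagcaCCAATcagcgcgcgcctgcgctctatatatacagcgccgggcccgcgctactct
The H1 motif AAACACA lay 112 bases and CCAAT 54 bases before its start.

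**Figure D3:**
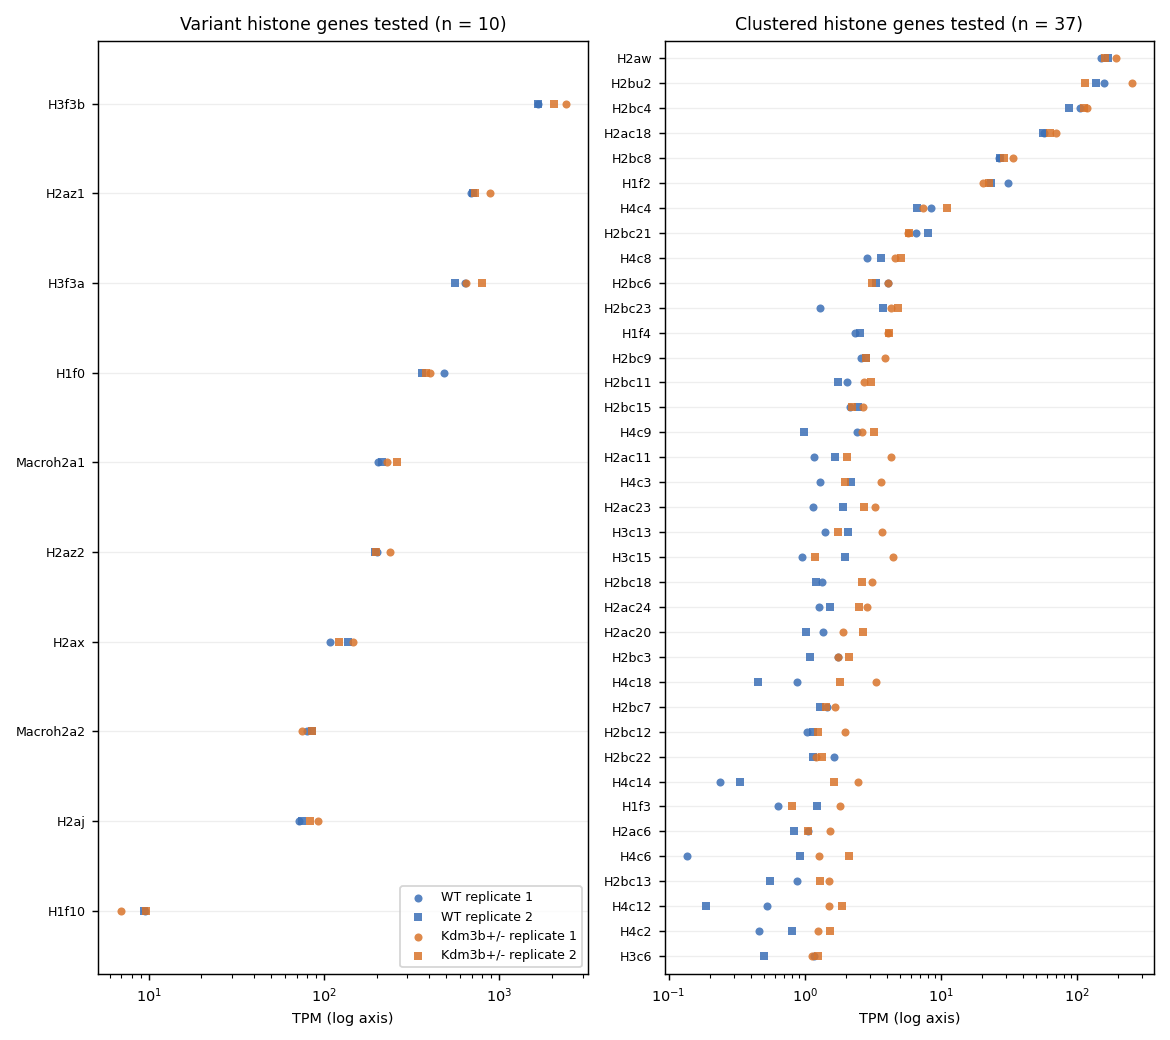
TPM on a log axis (horizontal) of the 10 variant and 37 clustered histone genes tested (vertical, ordered by mean TPM) in the 2 WT libraries (blue) and 2 Kdm3b+/- libraries (orange), with circles for replicate 1 and squares for replicate 2. H3f3b leads the variants at 1668 to 2406 TPM. The H4 genes at the bottom of the clustered panel show the widest gaps between groups, though they reached a mean of 1 TPM only in Kdm3b+/- mice.

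Of the histone types, H4 had the largest ratio of summed TPM between the groups. H4 has no variant form among the genes taken, so these 13 genes were all of the H4 message, and they summed to 18.4 and 17.6 TPM in WT and to 32.1 and 33.0 TPM in Kdm3b+/- mice. The group means were 18.01 ± 0.582 and 32.5 ± 0.672 (SD, n = 2 each), a ratio of 1.81. The mean was higher in Kdm3b+/- mice for 13 of 13 genes, and both Kdm3b+/- libraries were above both WT libraries for 10 of them, against 42.3% and 17.7% of all genes above 0. H4 genes are short, with deposited entries of 358 to 455 bases. Among other genes tested with transcripts under 700 bases, 53.3% had both Kdm3b+/- libraries above both WT libraries. Since H4 genes share sequence, the sum depends less on how reads were divided among copies than the single genes do.

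H4c14 (Hist2h4, chr3:96262934-96263317, minus strand) had the largest increase of the histone genes tested. Like H4c18, H4c12 and H4c6, it passed the filter only through the Kdm3b+/- group, a selection that favours large increases. It had 0.237 and 0.334 TPM in WT and 2.45 and 1.64 TPM in Kdm3b+/- mice, and the lowest mutant value was well above the highest WT value. Its log2 fold change was 1.23 (SE 0.22, limma adjusted p = 0.0562), and no stretch of 75 bases of its transcript was shared with another histone gene. H4c18 (Hist1h4n) had 0.884 and 0.452 TPM in WT and 3.35 and 1.82 TPM in Kdm3b+/- mice, with a log2 fold change of 1.08 (SE 0.26, limma adjusted p = 0.127). The files place it at the locus of its near-identical copy H4c17, which shares 89% of its stretches with it and was listed at 0 in 3 libraries, so the division of reads between these copies is uncertain.

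H4c12 (Hist1h4k) had 0.530 and 0.189 TPM in WT and 1.5025 and 1.87 TPM in Kdm3b+/- mice, and its log2 fold change was 0.99 (SE 0.22, limma adjusted p = 0.110). H4c6 had 0.136 and 0.930 TPM in WT and 1.27 and 2.11 TPM in Kdm3b+/- mice. Both had groups that did not overlap, and both passed the filter only through the Kdm3b+/- group. H4c4 (Hist1h4d), the highest H4 gene, differed from these: it had 8.49 and 6.65 TPM in WT and 7.42 and 11.1 TPM in Kdm3b+/- mice, with overlap and a log2 fold change of 0.24 (SE 0.21). H4c8, the next in level, had 2.88 and 3.64 TPM in WT and 4.57 and 5.08 TPM in Kdm3b+/- mice, without overlap. H4c14 was tested only because of its Kdm3b+/- values. It was not DEX in the main fit, with FPKM, with a pseudocount of 0.1 or with the loess correction. It was DEX with median-ratio scaling, eBayes without trend and robust eBayes, where 69, 37 and 92 of 13652 genes were. With the replicate block it was also DEX, among 600. These fits use the same 4 libraries and give no separate support.

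The promoter of H4c12 is shown as that of the clustered gene with the largest increase among those with a promoter sequence and a matching start (RefSeq, GRCm38.p6, chr13:21750554-21750803, minus strand).
H4c12: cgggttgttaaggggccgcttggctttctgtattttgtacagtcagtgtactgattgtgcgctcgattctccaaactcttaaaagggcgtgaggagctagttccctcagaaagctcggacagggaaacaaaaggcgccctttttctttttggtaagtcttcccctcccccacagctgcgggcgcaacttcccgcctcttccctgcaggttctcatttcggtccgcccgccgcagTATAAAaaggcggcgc
TATAAA lay 16 bases before its start, and the other 3 motifs did not match in these 250 bases.

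Clustered H2A message came mainly from a pair of genes. H2aw (Hist3h2a, chr11:58954685-58955192, plus strand) had 151 and 168 TPM in WT and 193 and 161 TPM in Kdm3b+/- mice, which overlapped. H2ac18 (Hist2h2aa1) had 57.4 and 56.5 TPM in WT and 70.1 and 63.9 TPM in Kdm3b+/- mice, without overlap. Its copy H2ac19, all of whose 75-base stretches are found in H2ac18, was listed at 0.130 to 0.202 TPM, and the pair summed to 57.6 and 56.6 TPM in WT and to 70.2 and 64.1 TPM in Kdm3b+/- mice. The log2 fold changes of H2aw and H2ac18 were 0.14 (SE 0.14) and 0.23 (SE 0.14).

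The other clustered H2A genes were low, and most were higher in Kdm3b+/- mice. Of 17 clustered H2A genes above 0, the mutant mean was the higher one in 17, and 14 did not overlap, against 42.3% and 17.7% of all genes above 0. Among other genes tested with transcripts under 700 bases, 53.3% had both Kdm3b+/- libraries above both WT libraries. H2ac11 (Hist1h2ag) had 1.17 and 1.67 TPM in WT and 4.32 and 2.05 TPM in Kdm3b+/- mice. Its log2 fold change was 0.74 (SE 0.27, limma adjusted p = 0.236). The near-identical H2ac23 and H2ac24, which the files list at overlapping positions, summed to 2.42 and 3.44 TPM in WT and to 6.14 and 5.21 TPM in Kdm3b+/- mice.

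Clustered H2B message was led by H2bu2 (Hist3h2ba, chr11:58948911-58949372, plus strand), which had the widest spread within a group of the abundant clustered genes. It had 158 and 139 TPM in WT and 254 and 115 TPM in Kdm3b+/- mice, so that the mutant libraries held both the highest and the lowest value. Its log2 fold change of 0.21 (SE 0.30) became -0.36 without Kdm3b+/- replicate 1. Summed clustered H2B was 319 and 283 TPM in WT and 441 and 290 TPM in Kdm3b+/- mice, which overlapped, and H2bu2 accounted for most of the gap between the mutant libraries.

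H2bc4 (Hist1h2bc, chr13:23684199-23692480, plus strand) is annotated with 2 exons, unlike the typical clustered gene, and with no stem-loop letters. It had 105 and 87.8 TPM in WT and 118 and 112 TPM in Kdm3b+/- mice, without overlap, with a log2 fold change of 0.26 (SE 0.14). H2bc8 (Hist1h2bg) had 26.6 and 27.1 TPM in WT and 33.7 and 29.3 TPM in Kdm3b+/- mice, and 42.5% of its 75-base stretches were shared with H2bc4. H2bc18 (Hist2h2bb), which shared none, had 1.33 and 1.21 TPM in WT and 3.1 and 2.64 TPM in Kdm3b+/- mice. Its groups were far apart against their spread, and its log2 fold change was 0.77 (SE 0.19, limma adjusted p = 0.135).

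Some H2B genes went the other way or stayed close. H2bc21 (Hist2h2be), an H2B form known from olfactory neurons, had 6.60 and 8.04 TPM in WT and 5.72 and 5.78 TPM in Kdm3b+/- mice. Its groups did not overlap, and its log2 fold change was -0.30 (SE 0.17, limma adjusted p = 0.403). H2bc6 (log2 fold change -0.03, SE 0.20) and H2bc22 (-0.07, SE 0.20) overlapped between groups. H2bc23 had 1.30 and 3.74 TPM in WT and 4.30 and 4.86 TPM in Kdm3b+/- mice. Its near-identical copy, listed as H4bc24 (Hist1h2br), had 1.14 TPM in WT replicate 1 and at most 0.0103 TPM elsewhere, so the low WT value of H2bc23 went with a high value of its copy.

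H2A and H2B genes often lie head to head with a short shared promoter. In 10 such pairs at loci with no overlapping entries, with 177 to 305 bases between the starts, the mean TPM of the H2B gene exceeded that of the H2A gene in 10, and it did so in each of the 4 libraries in 8. H2bc4 had a mean of 106 TPM against 1.12 TPM for H2ac6, whose start lies 239 bases away, a ratio of 94.6. H2bc8 had 29.2 TPM against 0.760 TPM for H2ac8 at 179 bases, a ratio of 38.4. The pair of H2ac11 and H2bc11 had 2.30 and 2.40 TPM, a difference that did not hold in every library. TPM is scaled to length, but copies that share sequence remain uncertain. H2bc4 has no stem-loop letters in its annotation, whereas H2ac6 has them. Library selection is not given in the sources used here, and its part in these ratios was not tested.

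**Figure D4:**
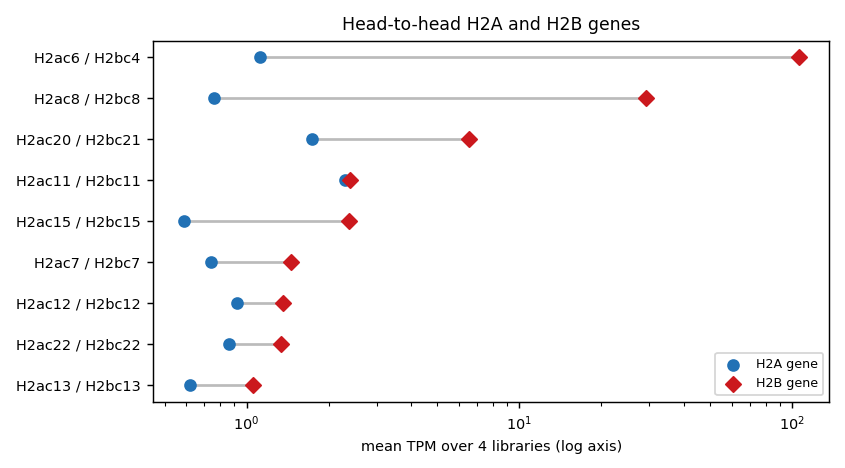
Mean TPM over the 4 libraries on a log axis (horizontal) of 9 head-to-head H2A and H2B pairs (vertical), with the H2A gene as a blue circle and the H2B gene as a red diamond; the pair with H2ac1, listed at 0, is not drawn. H2bc4 and H2bc8 stand farthest from their partners, by ratios of 94.6 and 38.4.

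Clustered genes were also grouped by where their annotated transcripts end. Of the 8 clustered genes with a mean of at least 5 TPM, 5 (H2aw, H2bu2, H2bc8, H1f2 and H4c4) had a GENCODE transcript that goes on for at least 100 bases after the stem-loop, 2 (H2bc4 and H2bc21) had no stem-loop letters, and 1 (H2ac18) ended within 100 bases. Most genes of each form were below that level: 5 of the 22 that go on and 2 of the 23 without the letters reached it. The genes without the letters include some with short annotated transcripts, such as H4c12 at 312 bases, and may thus be mixed. Both Kdm3b+/- libraries were above both WT libraries for 17 of the 22 genes that end within 100 bases. They were so for 10 of the 22 that go on and for 14 of the 23 without the letters. Of all genes above 0, 17.7% were apart in this way. The genes that end within 100 bases all have annotated transcripts under 700 bases, and most that go on have longer ones. Of other genes tested, 53.3% of those under 700 bases were apart in this way, against 12.9% from 2000 bases on. The part of length in these counts was not tested. The summed TPM of the genes that end within 100 bases was 76.4 and 77.5 in WT and 109 and 98.5 in Kdm3b+/- mice, without overlap, and that of those that go on was 395 and 385 in WT and 544 and 365 in Kdm3b+/- mice, with overlap.

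Low genes gave much of the count. There were 28 clustered genes above 0 with a mean under 1 TPM, which were not tested. Both Kdm3b+/- libraries were above both WT libraries for 18 and below them for 0, against 13.9% and 15.1% of the 5530 genes at such levels. Most of the 28 have transcripts under 700 bases, and the 5530 genes were not matched for length. Of other genes of that length that were tested, 53.3% had both Kdm3b+/- libraries above. The read depth of the 28 genes had a median of 1.24-fold coverage per library, so that single values rest on few reads and are imprecise. H4c1, for example, had 0.554 and 0.460 TPM in WT and 2.05 and 0.886 TPM in Kdm3b+/- mice, and H2ac4 had 0.494 and 0.316 TPM in WT and 1.55 and 1.45 TPM in Kdm3b+/- mice.

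Short transcripts in general were higher in the Kdm3b+/- libraries, and most clustered histone transcripts are short, with a median of 614 bases against 3364 for all genes tested. Lengths are those of the longest GENCODE transcript, and some clustered genes had much shorter deposited entries. H2aw spans 508 bases there against 2146, H1f2 725 against 1560 and H4c4 368 against 1138. The clustered values from 1000 bases on and the loess correction below rest on the annotated lengths and are uncertain for such genes. Among genes with a mean of at least 1 TPM in both groups, the 168 other genes under 700 bases had a median log2 fold change of 0.33, and 55.4% of them had both Kdm3b+/- libraries above both WT libraries. The 16 clustered genes of this length had a median of 0.35, close to that of the other short genes, with 11 of 16 (68.8%) apart in this way. From 700 to under 1000 bases the share was 62.9% of 385 other genes and 1 of 2 clustered genes. From 1000 to under 2000 bases it was 34.8% of 2087 other genes and 3 of 6 clustered genes, and from 2000 bases on it was 12.8% of 9989 other genes and 1 of 4 clustered genes. In that longest group the median was -0.12 for other genes, 0.06 for the clustered and 0.23 for the 5 variant genes. After a loess fit had removed the dependence on transcript length and GC content from every library, the median was 0.12 for clustered and 0.05 for variant genes, and 6 histone genes were higher and 1 lower at an unadjusted p under 0.05.

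**Figure D5:**
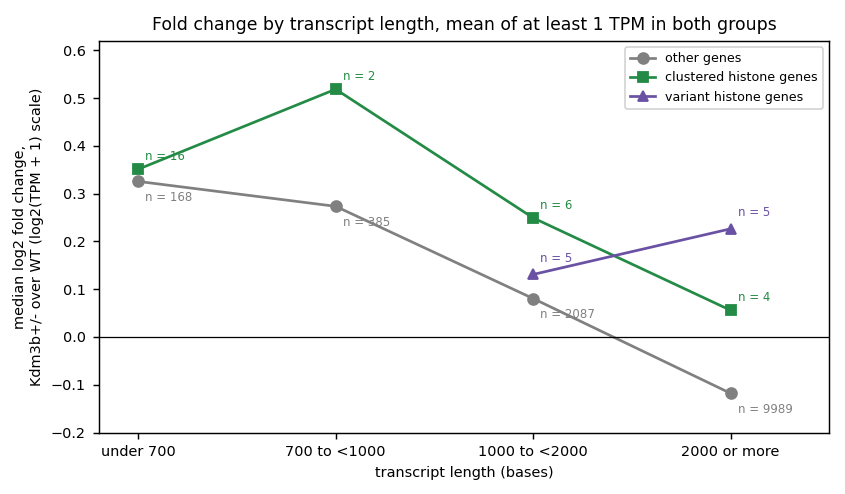
Median log2 fold change of Kdm3b+/- over WT on the log2(TPM + 1) scale (vertical axis) by length in bases of the longest GENCODE transcript (horizontal axis) for clustered histone genes (green squares), variant histone genes (purple triangles) and other genes (grey circles) with a mean of at least 1 TPM in both groups, with the number of genes beside each point. Medians of the other genes run from 0.33 under 700 bases to -0.12 from 2000 bases on, and under 700 bases the clustered histone genes (0.35) lie close to the other genes.

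A pair of RNAs without a poly(A) tail rose. Rmrp, the RNA of RNase MRP, had 10.1 and 17.3 TPM in WT and 36.4 and 40.7 TPM in Kdm3b+/- mice (log2 fold change 1.47, SE 0.23, limma adjusted p = 0.0329). Rpph1, the RNA of RNase P, had 20.01 and 28.2 TPM in WT and 79.5 and 60.1 TPM in Kdm3b+/- mice (log2 fold change 1.502, SE 0.20, limma adjusted p = 0.0199). They were the 2 of 7 listed RNAs in the files with a mean of at least 1 TPM, and both passed the test, against 0.461% of all genes tested. Among these RNAs and the histone supply and proliferation genes described below, the 2 were the only DEX genes. That count was 1 after the loess correction for length and GC content. Whether the libraries were made from poly(A) RNA or by depletion is not given in the sources used here, and the part of library composition in the histone values was not tested.

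Genes that make and process histone mRNA were examined next, as a list. Of 11 such genes tested (coactivators of transcription, the stem-loop binding protein and the cleavage factors), 0 were DEX, and at an unadjusted p under 0.05, 3 were lower and 0 higher, against 11.5% and 5.47% of all genes tested. Their median log2 fold change was -0.17, and 4 of 11 were above 0, against -0.07 and 39.6% for all genes tested. Slbp, which binds the stem-loop, had 94.4 and 89.9 TPM in WT and 100.1 and 91.7 TPM in Kdm3b+/- mice, and Npat, the coactivator of clustered histone genes, had 7.22 and 6.56 TPM in WT and 5.87 and 5.41 TPM in Kdm3b+/- mice. The largest differences were those of Upf1, a helicase that takes part in histone mRNA decay (log2 fold change -0.71, SE 0.22), of the cleavage scaffold Sympk (-0.60, SE 0.21) and of the cleavage factor Cstf2 (-0.39, SE 0.16). The limma adjusted p of these 3 genes was at least 0.183.

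No histone chaperone gene passed the test either. Of 6 genes of H3.3 deposition tested (the HIRA complex, Daxx and Atrx), 0 were DEX and none had an unadjusted p under 0.05. Hira had 5.89 and 6.74 TPM in WT and 6.26 and 6.502 TPM in Kdm3b+/- mice. Of 12 genes of H3.1 and general H3-H4 supply, 0 were DEX, and at an unadjusted p under 0.05 Nasp, an H3-H4 chaperone, was higher (log2 fold change 0.40, SE 0.16) and Tonsl, a reader of new H4, was lower (-0.53, SE 0.20). Of 14 genes of H2A-H2B supply and H2A.Z exchange, 0 were DEX and 1 was higher at an unadjusted p under 0.05, Znhit1, a subunit of the SRCAP complex (0.49, SE 0.16). Counts of this size are near the shares of all genes tested (0.461% DEX, 5.47% higher and 11.5% lower).

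Genes of DNA replication and cell division ranged from Pcna, the replication clamp, which had 132 and 111 TPM in WT and 136 and 126 TPM in Kdm3b+/- mice, to mitotic markers near 0. Of 10 genes of S phase and proliferation tested, 0 were DEX, and at an unadjusted p under 0.05 Mcm4, a helicase subunit, was lower (log2 fold change -0.56, SE 0.16) and Gins2, of the same replication complex, was higher (0.40, SE 0.17), which is near the shares of all genes tested (11.5% lower and 5.47% higher). Atoh1, the marker of granule cell progenitors, was listed at 0 in every library. Mki67 had 0.0407 and 0.129 TPM in WT and 0.269 and 0.313 TPM in Kdm3b+/- mice, and Top2a had 0.0580 and 0.0312 TPM in WT and 0.173 and 0.278 TPM in Kdm3b+/- mice. Both were far below 1 TPM and were not tested, but neither overlapped between groups. The summed TPM of all 15 markers was 231 and 217 in WT and 219 and 213 in Kdm3b+/- mice, which overlapped, and their part in the histone result was not tested.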

How the data were processed

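RNA-seq libraries of 2 WT and 2 Kdm3b+/- mice were grouped by the genotype in the labels. The authors trimmed reads, aligned them with STAR and estimated abundance with StringTie. Versions, genome build, strand and library selection are not given in the sources used here. The deposited values were TPM and FPKM per gene, and the coverage, a deposited signal, was the mean read depth. Read counts were not recovered.

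Symbols from the RefSeq table of GRCm38.p6 were found for 24462 identifiers, and 92 of the 104 histone genes had a start within 1000 bases of it. Entries of a gene were summed. Those whose TPM averaged at least 1 were tested on log2(TPM + 1) with limma version 3.58.1 (eBayes with trend, R version 4.3.3), genotype as the only term, and Benjamini-Hochberg adjustment over 13652 genes. The study used DESeq2 on counts, which the TPM tables did not allow. Robust fits used statmod version 1.5.0, and tables and figures used Python with pandas and Matplotlib. With 2 mice against 2, an exact permutation test cannot go below p = 0.333. The scripts were tested on simulated data. Transcript length and GC content were those of the longest GENCODE transcript of a gene. Stretches of 75 bases shared between genes came from all GENCODE transcripts of a gene. Promoters were absent from the table for H2bc4, H2bc21, H3c7, H3c1, H4c14 and H2ax.

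Every histone gene may be named. Statistics are given for the variants tested, the 10 highest clustered genes, the 5 largest increases and 5 largest decreases, and up to 3 genes of each related list. H1f4, H2ac11, H2bc18 and the genes given with TPM alone are examples, some of which were chosen after their values were seen. The members, lists and rules were chosen with earlier results of these data known. Alternatives were a pseudocount of 0.1, FPKM, other filters on TPM, median-ratio scaling, other eBayes settings, a replicate block, a loess correction for length and GC content, the highest entry per gene, and each library left out. A pseudocount of 0.1 with a filter at 0.1 TPM, and a filter at 1 TPM in both groups, were added after seeing the data.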

Additional observations from a re-analysis of the deposited data

How the results depend on the processing

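The count of 0 DEX histone genes became 1 (H4c14) with median-ratio scaling, with eBayes without trend and with robust eBayes, and it ran from 0 to 5 with a library left out, the 5 being without Kdm3b+/- replicate 2. The 16 histone genes higher at an unadjusted p under 0.05 became 1 with the filter at 5 TPM, where 18 histone genes were tested, 6 with the loess correction for length and GC content, with or without the replicate block, 10 when both groups had to reach 1 TPM (added after seeing the data) and 27 with a pseudocount of 0.1 and a mean TPM of at least 0.1. The 0 lower became 1 with no filter, with the loess correction and with the added setting, and 0 to 1 with a library left out. The clustered median of 0.40 was 0.56 with a pseudocount of 0.1, 0.32 with FPKM, 0.31 with no filter, 0.21 with the filter at 5 TPM, 0.12 with the loess correction with or without the block, 0.30 with the highest entry per gene, 0.30 when both groups had to reach 1 TPM, 0.68 with the added setting of low pseudocount and filter and 0.32 to 0.47 with a library left out. The variant median of 0.17 was 0.23 with FPKM, 0 with no filter, 0.24 with median-ratio scaling, 0.047 with the loess correction with or without the block, 0.22 with the added setting and 0.057 to 0.19 with a library left out. The log2 ratio of summed variant TPM (0.27) was 0.33 with FPKM and 0.34 with median-ratio scaling, and that of summed clustered TPM ran from 0.047 without Kdm3b+/- replicate 1 to 0.46 without Kdm3b+/- replicate 2. The count of 2 DEX genes (Rmrp and Rpph1) in the 6 related lists, which exclude the cell markers, was 0 with no filter, with the loess correction and block together and with the added setting, 1 with eBayes without trend and with the loess correction, 4 with the replicate block and 0 to 3 with a library left out, the 0 being without WT replicate 1. A fit with a library left out had 1 mouse in a group, so that no spread within that group entered its counts. The causes of these shifts were not tested beyond the number of genes or libraries that a setting left.

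The sign turned for Macroh2a2 (0.020 with FPKM, 0.026 with median-ratio scaling and 0.027 with the loess correction with or without the block), for H2bu2 (-0.11), H2ac18 (-0.11) and H2bc8 (-0.10) with the loess correction with or without the block, and for H2bc6 with FPKM (0.015) and median-ratio scaling (0.023). With a library left out, the log2 fold change turned for H1f0 (-0.30 to 0.11), H1f10 (-0.40 to 0.028), H2az2 (-0.0095 to 0.27), H2ax (-0.035 to 0.29), Macroh2a2 (-0.14 to 0.055), H2bu2 (-0.36 to 0.77), H4c4 (-0.018 to 0.50), H2bc6 (-0.19 to 0.12) and H2bc22 (-0.22 to 0.078). None of these genes passed the test in any setting run.

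Same-numbered mice are different animals, and their deviations correlated at 0.121. With the replicate block, 3 histone genes (H4c12, H4c14 and H4c18) were DEX, among 600 of all genes against 63 without it. With 2 mice per group, p-values rest on a spread shared across genes, and median-ratio scaling moved the median of all genes by 0.06.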
